A study of Mus musculus with 21 samples.

Results

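Mice whose Mex3a-HyperTRIBE construct was switched on in immature olfactory sensory neurons (OSN) alone were compared with mice in which it was switched on in immature and mature OSN together. The libraries were chosen by the genotype and sort given in the labels, with no measured value used. Every mouse with the Mex3a-HyperTRIBE construct and a library from both of its sorted fractions was taken, which gave 14 of the 21 libraries of the series, from 7 mice. Of these, 2 mice carried gg8-tTA and 5 carried gg8-tTA with OMP-tTA. A sixth gg8+OMP OSN library had no mCherry-negative partner and entered no comparison. All 7 mice carried tetO-Mex3a-HyperTRIBE-mCherry, in which the tTA protein of the driver turns on a fusion of Mex3a, an RNA-binding protein, to the RNA-editing domain of HyperTRIBE, together with the red fluorescent protein mCherry. The mCherry-positive cells of the main olfactory epithelium are called OSN here. Per the labels they were immature OSN in the gg8 mice and immature plus mature OSN in the gg8+OMP mice, and the mCherry-negative cells of the same mouse were the internal control. Every mouse carried the fusion, so no comparison here shows an effect of Mex3a itself. Age, sex and strain are not given in the sources used here.

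OSN are renewed throughout life from basal progenitors. A newborn neuron first expresses Gng8, a G protein gamma subunit, and genes of axon growth such as Gap43, and starts to choose an odorant receptor. As it matures it loses these genes and gains the olfactory marker protein Omp and the transduction cascade of the cilia, in which an odorant receptor acts through the G protein Gnal (Golf) and the adenylyl cyclase Adcy3 to open the channel made of Cnga2, Cnga4 and Cngb1. The gg8 driver uses the Gng8 promoter and the OMP driver the Omp promoter. With gg8 alone, mature OSN therefore belong to the mCherry-negative fraction by design, while with both drivers they belong to the mCherry-positive fraction.

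Libraries held 7529648 to 15358110 counts recovered from the deposited values, and 13917 to 16533 genes reached 1 TPM (the length-scaled level in which the values were deposited) in a library. The library names carry a January date for every gg8 mouse and a September date for every gg8+OMP mouse, so the effects of driver and date cannot be told apart below. Xist, made by cells with an inactive X chromosome, and Y-linked RNA, averaged over 4 genes, both reached 1 TPM in 12 of the 14 libraries. Only the Y-linked genes reached that level in the other 2, both from gg8 mouse 1. RNA of both sexes was thus present in libraries that the labels assign to a single mouse, and its part in the results was not tested. The fractions of gg8 mouse 2 differed in it. Xist stood at 159 TPM in its OSN and 21.4 in its negative cells, and the Y-linked mean at 14.9 and 24.0. In the gg8+OMP mice Xist ran from 58.35 to 139.76 TPM in OSN and from 55.3 to 162.5 in negative cells. Whether both fractions of gg8 mouse 2 came from the same animals was not tested. The gg8 mice also differed from each other. Across 16792 genes the OSN minus negative differences of gg8 mouse 1 correlated with those of the gg8+OMP mice at r = 0.57 to 0.71, those of gg8 mouse 2 at 0.23 to 0.45, and the gg8 mice with each other at 0.65, against 0.79 to 0.88 among the gg8+OMP mice (across genes, which are not independent replicates). With 2 gg8 mice, counts of called genes are also given without each of them.

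Each gene was measured as the sort difference, the log2(TPM + 1) level in OSN minus that in the mCherry-negative cells of the same mouse. The driver difference is the mean sort difference of the 5 gg8+OMP mice minus that of the 2 gg8 mice, given with its standard error, and it was tested with limma over 16792 genes. It can be positive because OSN hold more of a transcript, because the negative cells hold less, or both, so both fractions bear on it. The 2 tables were scaled separately by their makers, and levels are therefore compared between drivers only as description. In these bulk libraries, fewer cells of a type and less RNA per cell cannot be told apart.

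Transcripts of mature OSN were on the negative side of the sort with gg8 (14 of 16 listed genes called lower in OSN) but not with gg8+OMP (0 called lower and 3 higher), and transcripts of dividing cells, granulocytes and bone were on the negative side with either driver. The driver difference was positive and past the threshold of an adjusted p of 0.05 for 1823 genes, 10.9% of those tested, and negative for 1021 genes, 6.08%. A further measure needs no model: the sort differences of both gg8 mice lay below those of all 5 gg8+OMP mice for 3198 genes (19%), and above them for 2801 (16.7%). The sort difference under each driver was tested with a spread pooled over all 7 mice, so the gg8 calls rest partly on the gg8+OMP mice. With gg8 alone 3014 genes (17.9%) were called higher in OSN and 3279 (19.5%) lower, and with both drivers 5652 (33.7%) were called higher and 4363 (26%) lower, or 59.6% in all. With voom on recovered counts the last split was 4108 and 4826. At an unadjusted p under 0.05 the driver difference held for 34.5% of genes and the gg8+OMP sort difference for 63.8%. The genes called higher with both kinds of mice numbered 2037, which is 67.6% of the gg8 list and 36.04% of the gg8+OMP list. For genes called lower the overlap was 1968, or 60.02% and 45.1%. The mean sort differences of the drivers had a Pearson correlation of 0.58 and a Spearman correlation of 0.50 across the 16792 genes. Their medians over all genes were 0.09 with gg8 and 0.16 with gg8+OMP, and median-of-ratios scaling changed the latter to 0.02.

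The counts of called genes depended on single mice. Without gg8 mouse 2 limma called 1 gene higher and 1 lower, although 1783 and 1534 genes still had an unadjusted p under 0.05, and the remaining gg8 mouse had to be assumed to vary like the gg8+OMP mice. None of the list members or named genes below was called for the driver difference in that fit. Without gg8 mouse 1 the counts were 2762 and 2234. Leaving out gg8+OMP mice 1, 3 and 4 gave 1095, 889 and 1066 genes called higher, and leaving out gg8+OMP mice 1 to 4 gave 649, 632, 368 and 416 genes called lower. For the gg8 mice by themselves, 719 genes were called higher and 1458 lower in OSN without mouse 2.

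**Figure D1:**
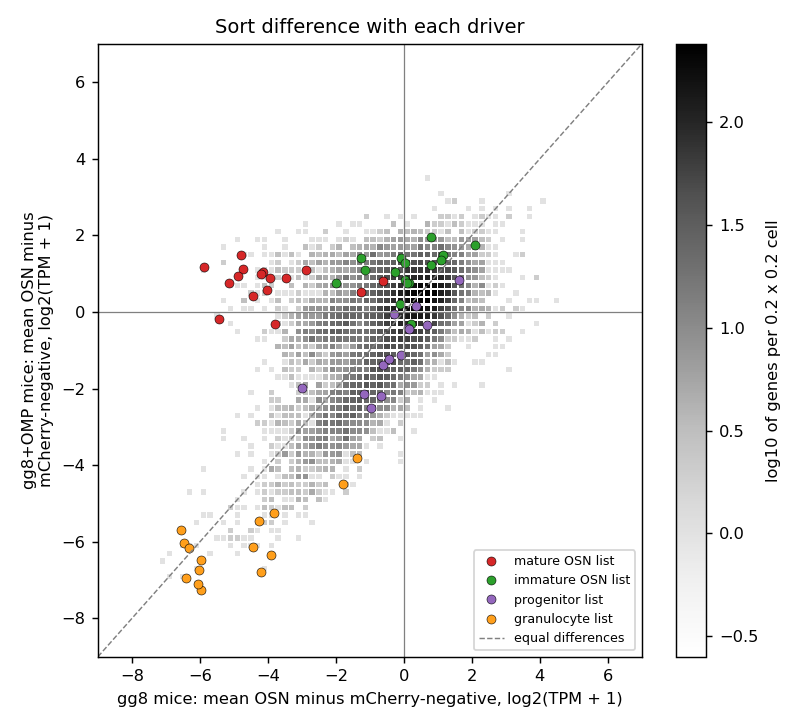
Mean OSN minus mCherry-negative difference on the log2(TPM + 1) scale in the 2 gg8 mice (x axis) and the 5 gg8+OMP mice (y axis), with grey cells shaded by the number of the 16792 tested genes they hold, coloured points for members of 4 gene lists and a dashed line of equal differences. Mature OSN genes (red) lie at the far left, with a list median of -4.16 on the x axis and 0.89 on the y axis, while granulocyte genes (orange) lie at the lower left, near -5.96 and -6.17.

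Mex3a, the gene carried by the construct, and the genes that name the drivers were examined first, since they check the labels. Mex3a stood at 460.3 and 1632 TPM in the gg8 OSN against 211 and 101 in their mCherry-negative cells, and 359, 337, 328, 332 and 1271 TPM in the gg8+OMP OSN against 57.8, 106, 144, 93.7 and 207 in theirs. It was higher in OSN than in the negative cells of every mouse. The OSN of gg8 mouse 2 and gg8+OMP mouse 5 stood far above the other OSN libraries, which held 328 to 460.3 TPM. The driver difference of -0.58 ± 0.69 did not pass the threshold (adjusted p = 0.563), and without gg8 mouse 2 it was 0.86. Reads of the endogenous gene and of the construct are not separated in these values. Adar, the endogenous adenosine deaminase that edits double-stranded RNA, was also higher in OSN in every mouse. Its OSN level was 498 and 1418 TPM with gg8 and 422, 392, 388, 377 and 1198 TPM with gg8+OMP, and its negative-cell level was 50.5 and 42.0 with gg8 and 52.4, 63.3, 71.6, 62.5 and 90.5 with gg8+OMP. The ratio of Adar to Mex3a TPM was 0.869 to 1.18 in the 7 OSN libraries and 0.239 to 0.907 in the negative ones. Whether reads of the editing domain were counted under Adar was not tested.

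Gng8 was on the OSN side with both drivers. It stood at 1256 and 664 TPM in the gg8 OSN against 245 and 185 in their mCherry-negative cells, and 339, 342, 311, 403 and 329 TPM in the gg8+OMP OSN against 64.2, 96.5, 142, 86.6 and 144 in theirs. The gg8 OSN held more of it than any gg8+OMP OSN library, but the gg8 negative cells also held more than any gg8+OMP negative cells. The driver difference was -0.35 ± 0.37 (adjusted p = 0.517). Omp changed sides. It stood at 164 and 53.8 TPM in the gg8 OSN against 1937 and 3561 in their mCherry-negative cells, and 1597, 1530.0, 1525, 1266 and 682 TPM in the gg8+OMP OSN against 1076, 1431, 279, 892 and 46.9 in theirs. Every gg8 mouse had less Omp in OSN than in negative cells, with sort differences of -3.55 and -6.02, and every gg8+OMP mouse had more in OSN, with 0.10 to 3.83. The driver difference was 6.28 ± 1.03 (adjusted p = 0.0115), and 5.04 with an adjusted p of 0.0917 without gg8 mouse 2. The negative cells of gg8+OMP mice 3 and 5 held far less Omp than those of mice 1, 2 and 4, which held 892 TPM or more, so with both drivers a large Omp level remained in the negative fraction of 3 of 5 mice. The gg8+OMP sort difference of 1.49 (adjusted p = 0.0416) lost its call without gg8+OMP mouse 1, 3 or 5, at adjusted p of 0.0558, 0.122 and 0.131.

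**Figure D2:**
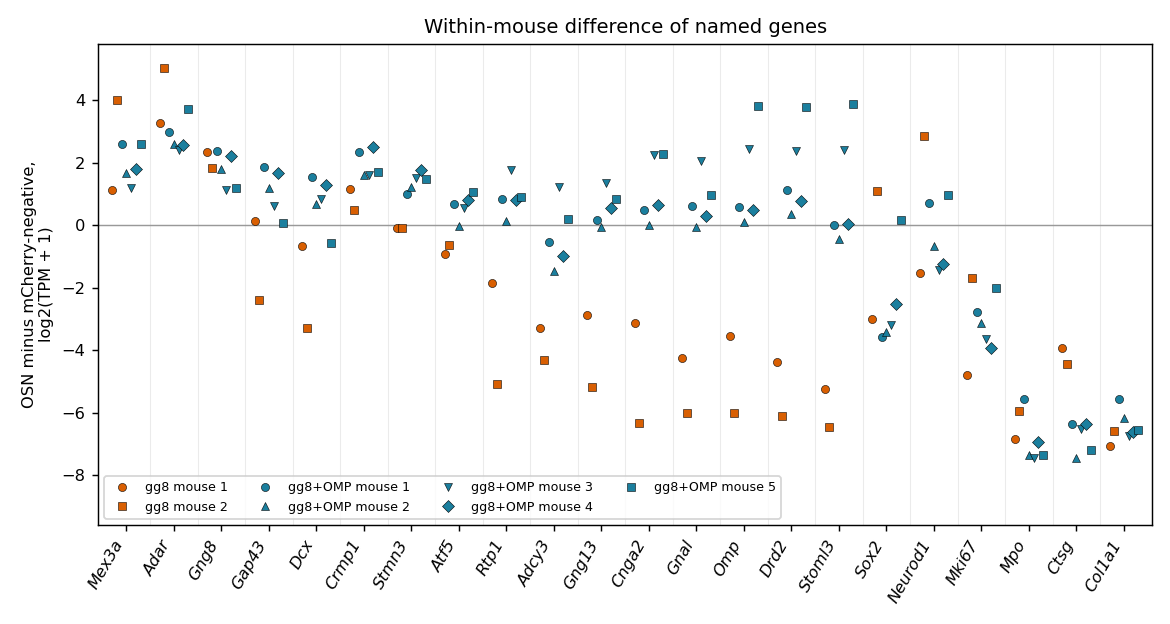
Within-mouse difference between OSN and mCherry-negative cells, log2(TPM + 1), for 22 genes along the x axis, with 1 point per mouse (orange for gg8, blue for gg8+OMP). From Rtp1 to Stoml3 both orange points lie below all blue points, Mex3a and Adar are above 0 in all 7 mice, and Mpo and Col1a1 are below -5 in all 7.

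Of 16 genes listed for mature OSN, 14 had a higher sort difference with gg8+OMP past the threshold and none a lower one, beside 10.9% and 6.08% of all genes. The median driver difference of the list was 5.01, against -0.12 over all genes tested. The list's summed level was 1051 and 435 TPM in the gg8 OSN, 10537 and 18119 in the gg8 negative cells, 8712, 8024, 8090, 6317 and 2558 in the gg8+OMP OSN, and 7520, 10017, 2036, 5783 and 704 in the gg8+OMP negative cells. The gg8 OSN libraries were thus the lowest or near the lowest of all 14, and the summed level in the gg8+OMP negative cells spanned more than in any other group. With gg8, 14 of the 16 genes were called lower in OSN, beside 19.5% of all genes. With gg8+OMP 3 were called higher (Omp, Rtp2 and Kirrel2), a smaller share than the 33.7% of all genes. Slc17a6, a vesicular glutamate transporter, and the lipid droplet protein gene Cidea had no called driver difference. The list median without gg8 mouse 2 was 3.29 with 0 genes called by limma and 14 at an unadjusted p under 0.05, and 6.17 with 14 called without gg8 mouse 1.

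The gene with the largest driver difference of the genes chosen by the naming rule was Stoml3, a stomatin family protein of the olfactory cilium (driver difference 7.04 ± 1.09, adjusted p = 0.0105). It stood at 48.7 and 43.0 TPM in the gg8 OSN against 1902 and 3903 in their mCherry-negative cells, and 1415, 1344, 1421, 999 and 342 TPM in the gg8+OMP OSN against 1427, 1833, 271, 971 and 22.2 in theirs. Its gg8 OSN levels were below those of every other library except the negative cells of gg8+OMP mouse 5. Drd2, a dopamine receptor, followed with OSN levels of 4.37 and 1.59 TPM with gg8 and 117, 121, 111, 87.0 and 57.3 with gg8+OMP, and negative-cell levels of 111 and 178 with gg8 and 52.8, 94.1, 20.6, 50.9 and 3.26 with gg8+OMP (driver difference 6.93 ± 0.87, adjusted p = 0.00991). Kcnc4, a voltage-gated potassium channel, had 24.2 and 4.83 TPM in gg8 OSN and 442, 363, 369, 282 and 96.3 in gg8+OMP OSN (driver difference 6.82 ± 1.00, adjusted p = 0.0103). In negative cells Kcnc4 had 282 and 463 TPM with gg8 and 169, 289, 33.2, 145 and 7.82 with gg8+OMP. The other genes among the 10 largest were Tusc5, Nrn1l, Omp, Fam179a, Map3k19, Dcdc2a and Gnal, with driver differences from 6.55 down to 5.90 and adjusted p of 0.00991 to 0.0137. Dcdc2a belongs to the doublecortin family of microtubule-binding proteins. All 10 kept a positive driver difference without gg8 mouse 2, from 4.39 to 6.43, at adjusted p of 0.06 to 0.114.

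Promoter sequences of some of these genes and of Gng8 are shown because the mature OSN genes moved together between the drivers. Each is the RefSeq window of 300 bases around a transcription start in GRCm38.p6, 5′ to 3′, with capitals marking CCCNNGGG, the core bound by the early B-cell factors (EBF) that are abundant in OSN. Stoml3, Drd2, Kcnc4 and the channel gene Cnga2 were higher with gg8+OMP. Cnga2 comes from the mature OSN list and was not among the named genes with the largest driver differences. Gng8 is the gene whose promoter gives the gg8 driver its name.
Stoml3 promoter, chr3:53488457-53488756, plus strand: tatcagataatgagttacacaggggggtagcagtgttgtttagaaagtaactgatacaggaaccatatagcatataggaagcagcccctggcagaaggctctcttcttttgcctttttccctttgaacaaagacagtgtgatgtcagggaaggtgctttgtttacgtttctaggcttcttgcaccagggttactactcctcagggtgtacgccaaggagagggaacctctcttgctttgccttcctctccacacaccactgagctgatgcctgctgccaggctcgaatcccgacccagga
Drd2 promoter, chr9:49340153-49340452, plus strand: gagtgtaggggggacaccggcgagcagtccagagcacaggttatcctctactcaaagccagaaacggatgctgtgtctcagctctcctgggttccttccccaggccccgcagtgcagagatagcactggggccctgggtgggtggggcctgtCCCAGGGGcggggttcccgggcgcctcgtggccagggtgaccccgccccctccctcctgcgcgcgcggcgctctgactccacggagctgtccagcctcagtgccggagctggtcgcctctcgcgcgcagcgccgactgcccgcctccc
Kcnc4 promoter, chr3:107458849-107459148, minus strand: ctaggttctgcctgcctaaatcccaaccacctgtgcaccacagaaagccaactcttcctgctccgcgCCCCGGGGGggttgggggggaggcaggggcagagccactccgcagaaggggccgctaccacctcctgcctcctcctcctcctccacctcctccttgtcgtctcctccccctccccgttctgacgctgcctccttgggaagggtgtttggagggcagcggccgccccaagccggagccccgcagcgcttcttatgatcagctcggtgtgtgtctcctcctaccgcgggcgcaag
Cnga2 promoter, chrX:71991599-71991898, plus strand: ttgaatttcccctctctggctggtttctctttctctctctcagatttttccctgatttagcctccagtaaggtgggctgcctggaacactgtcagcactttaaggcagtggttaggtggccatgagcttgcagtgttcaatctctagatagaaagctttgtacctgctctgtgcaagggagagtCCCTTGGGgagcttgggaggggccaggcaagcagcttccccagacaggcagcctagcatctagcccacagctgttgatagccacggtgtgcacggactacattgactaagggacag
Gng8 promoter, chr7:16891536-16891835, plus strand: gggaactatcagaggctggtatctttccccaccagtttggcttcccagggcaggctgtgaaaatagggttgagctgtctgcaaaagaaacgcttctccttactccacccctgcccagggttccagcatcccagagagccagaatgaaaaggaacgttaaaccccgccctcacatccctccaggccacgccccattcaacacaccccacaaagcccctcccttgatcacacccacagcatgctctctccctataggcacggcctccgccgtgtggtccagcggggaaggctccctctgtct

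The motif, which reads the same on both strands, was found 1 time in the Drd2 window, 2 times, overlapping, in that of Kcnc4 and 1 time in that of Cnga2, and its letters are not in the windows of Stoml3 and Gng8. Of the 16 mature OSN genes 12 had a window, and 8 of these held the motif (66.7%), namely Ano2, Cnga2, Cnga4, Cngb1, Gng13, Kirrel2, Rtp2 and Umodl1. Windows were available for 5 of the named genes with the largest positive driver differences. The motif was in 2 of them, Drd2 and Kcnc4. In the immature OSN list 3 of 11 genes with a window held the motif, and in the granulocyte list 3 of 13. Over all 27025 genes with a window the share was 15.4%. A homeodomain core, TAATTA, which also reads the same on both strands and does not overlap CCCNNGGG, was found in 1 of the 12 mature genes (Slc17a6) and in 6.1% of all genes. These matches describe the letters of the windows and were not tested.

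Genes of the transduction cascade, from the G protein to the channels, mostly had positive driver differences too. Adcy3, Gnal, Gng13, Cnga2, Cnga4, Cngb1 and Ano2 are also in the mature OSN list, so the counts of these lists are not separate. Of 16 genes, 14 were called higher with gg8+OMP and none lower, beside 10.9% and 6.08% of all genes. The median driver difference was 3.13. Slc12a2, the chloride importer (0.98, adjusted p = 0.0909), and Camk2b (1.35, adjusted p = 0.118) did not pass. Gnal, which couples receptors to the cyclase, stood at 48.9 and 21.4 TPM in the gg8 OSN against 953 and 1434 in their mCherry-negative cells, and 996, 869.9, 945, 638 and 152 TPM in the gg8+OMP OSN against 648, 915, 229, 519 and 76.5 in theirs. Its sort differences of -4.26 and -6.00 in the gg8 mice lay apart from the -0.07 to 2.04 of the gg8+OMP mice (driver difference 5.90 ± 0.59, adjusted p = 0.00991). The cyclase Adcy3 differed in form: it was lower in OSN with gg8 (-3.28 and -4.32) but ranged from -1.47 to 1.22 with gg8+OMP, where its mean sort difference was -0.32 (adjusted p = 0.448). Its negative-cell levels of 356, 543, 71.3, 267 and 49.7 TPM in the gg8+OMP mice exceeded the OSN levels of 243, 195, 168, 134 and 57.0 in mice 1, 2 and 4.

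Among the channels, Cnga2 had 53.5 and 8.70 TPM in gg8 OSN and 490.1, 463, 532, 373 and 274 in gg8+OMP OSN (driver difference 5.85 ± 0.88, adjusted p = 0.0103). Cnga2 in negative cells had 474 and 779 TPM with gg8 and 347, 467, 112, 239 and 55.7 with gg8+OMP. The modulatory subunits Cnga4 (driver difference 4.85 ± 1.03, adjusted p = 0.0192) and Cngb1 (driver difference 5.18 ± 1.09, adjusted p = 0.0191) and the calcium-activated chloride channel Ano2 (driver difference 4.83 ± 0.90, adjusted p = 0.0145) were called as well. The potassium-dependent sodium-calcium exchanger Slc24a4, which ends the response, stood at 5.40 and 2.06 TPM in gg8 OSN and 23.0 to 85.7 in gg8+OMP OSN (driver difference 4.98 ± 0.65, adjusted p = 0.0103). Its negative-cell levels were 90.8 and 144 TPM with gg8 and 75.8, 115, 29.8, 56.7 and 7.56 with gg8+OMP. The G protein gamma subunit Gng13 (driver difference 4.60 ± 0.57, adjusted p = 0.00991) had a larger driver difference than its partner Gnb1 (driver difference 2.08 ± 0.41, adjusted p = 0.0163), which stood at 1037 and 423 TPM in gg8 OSN and 1608, 1549, 1792, 1540.3 and 948 in gg8+OMP OSN. Gnb1 negative-cell levels were 1686 and 2096 TPM with gg8 and 1060.1, 1375, 872, 963 and 711 with gg8+OMP. The difference between these genes was not tested. The phosphodiesterases Pde1c and Pde4a had driver differences of 2.38 and 2.71, with adjusted p of 0.0174 and 0.0156.

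Odorant receptor transcripts were on the negative side of the sort with gg8, and closer to even but still more often on that side with both drivers. The tables shared 1205 receptor genes. Their summed level was 900.3 and 79.3 TPM in the gg8 OSN, against 4442 and 4996 in the gg8 negative cells. In the gg8+OMP OSN it was 1229, 1269, 1319.7 and 886 TPM in mice 1 to 4 and 595 in mouse 5, against 1733, 2263, 1163, 1649 and 776 in the negative cells. The OSN sum was the lower of the pair in both gg8 mice and in 4 of 5 gg8+OMP mice, with gg8+OMP mouse 3 as the exception. The number of receptor genes at 1 TPM or more was 163 and 4 in gg8 OSN and 1005 and 1014 in gg8 negative cells, and it was 138 to 423 in gg8+OMP OSN and 240 to 613 in gg8+OMP negative cells. Receptors were thus fewest in the OSN of gg8 mouse 2.

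Over all 1205 receptors the median sort difference was -1.60 with gg8 and -0.20 with gg8+OMP, the driver difference was above 0 for 1156 genes and below 0 for 49, and its median was 1.39. The filter on low values kept 691 receptors, of which 403 were called higher with gg8+OMP and 0 lower (593 and 0 at an unadjusted p under 0.05, and 330 and 0 called by voom). The 403 fell to 234 and 175 without gg8+OMP mouse 1 and 3, to 240 with a pseudocount of 0.1 and to 32 with a filter at 5 TPM. With gg8+OMP 138 of the 691 were called lower in OSN and 11 higher, beside 26% and 33.7% of all genes. With gg8 626 were called lower and 0 higher, beside 19.5% and 17.9%. Of the 691, 690 averaged 1 TPM or more over the gg8 libraries but only 399 did so over the gg8+OMP libraries. Most thus passed through the gg8 negative cells, where receptors were highest, and these counts describe the table rather than adding support. Of the 691, Olfr536 had the largest driver difference, with sort differences of -4.11 and -5.23 in the gg8 mice and -0.70 to 0.86 in the gg8+OMP mice (driver difference 4.71 ± 0.47, adjusted p = 0.00991). Olfr558 was near even between drivers, with -1.36 and -1.66 with gg8 and a range of -1.77 to -1.0 with gg8+OMP (driver difference 0.14 ± 0.38, adjusted p = 0.812). Receptor genes are near-identical in families, and how shared reads were counted is not stated, so single receptors are uncertain. Olfr536 and Olfr558 were chosen after their values were seen.

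**Figure D3:**
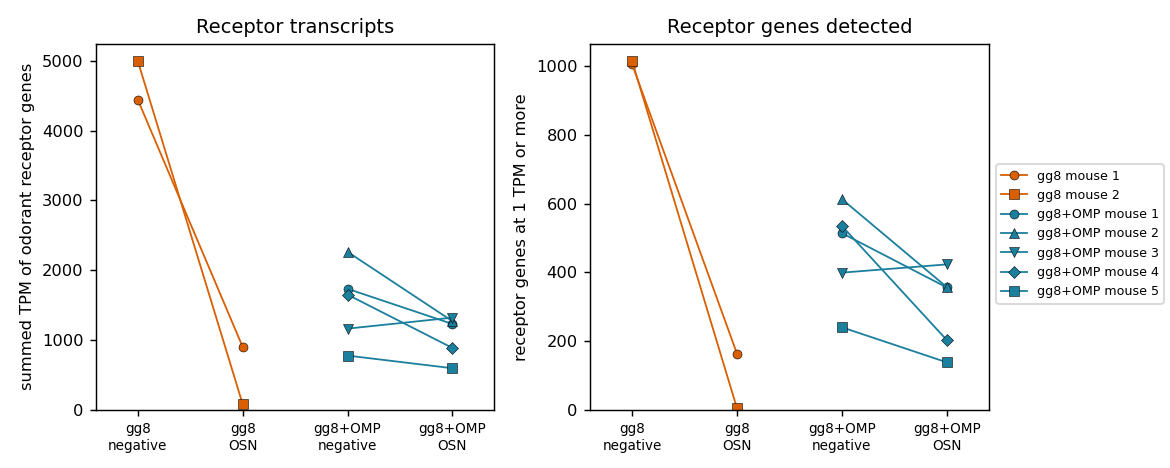
Summed TPM of the 1205 odorant receptor genes (left) and number of receptor genes at 1 TPM or more (right) in each library, with a line joining the mCherry-negative cells and OSN of each mouse. The lines of the gg8 mice (orange) fall from 4442 and 4996 TPM to 900.3 and 79.3, while those of the gg8+OMP mice (blue) stay between 595 and 2263 TPM.

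Genes that help carry receptors to the cell surface had called driver differences, and the stress genes listed with them, apart from Atf5, did not. The list held 14 genes of receptor transport and the unfolded protein and integrated stress responses. Of these, 4 were called higher with gg8+OMP and none lower, beside 10.9% and 6.08% of all genes. These were the receptor chaperones Rtp1 (driver difference 4.36 ± 0.74, adjusted p = 0.012) and Rtp2 (driver difference 3.97 ± 0.74, adjusted p = 0.0145), their relative Reep1 (driver difference 2.81 ± 0.71, adjusted p = 0.0313) and Atf5 (driver difference 1.39 ± 0.30, adjusted p = 0.0193), the transcription factor that receptor expression induces. Rtp1 and Rtp2 were also counted in the mature OSN list. Rtp1 stood at 132 and 16.5 TPM in gg8 OSN and 429, 374, 427, 338 and 158 in gg8+OMP OSN. In negative cells Rtp1 had 476 and 599.7 TPM with gg8 and 237, 343, 125, 191 and 84.5 with gg8+OMP. Atf5 stood at 800.0 and 1346 TPM in the gg8 OSN against 1522 and 2083 in their mCherry-negative cells, and 1010.5, 929, 1130.3, 1152 and 1592 TPM in the gg8+OMP OSN against 627, 939, 775, 668 and 767 in theirs. It was abundant in every library and below its negative-cell level in both gg8 OSN libraries. The PERK kinase gene Eif2ak3 was higher in OSN with gg8 (1.27, adjusted p = 0.00436) and with gg8+OMP (1.04, adjusted p = 0.000363), and its driver difference was -0.23 ± 0.27 (adjusted p = 0.56).

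The stress genes downstream differed between mice of the same driver. Atf4, the effector of the integrated stress response, had 442 and 1286 TPM in gg8 OSN and 396, 383, 408, 433 and 929 in gg8+OMP OSN. Ddit3 (CHOP) had 64.5 and 478 with gg8 and 82.9, 70.6, 89.2, 77.6 and 276 with gg8+OMP TPM, and the pseudokinase gene Trib3 had 19.5 and 182 with gg8 and 19.0, 22.8, 26.1, 19.3 and 110.1 with gg8+OMP. The highest values of each driver are those of gg8 mouse 2 and gg8+OMP mouse 5, the libraries with the most Mex3a. The list median of the driver difference moved from -0.28 to 0.38 without gg8 mouse 2, and to -1.23 without gg8 mouse 1, when 4 genes were called higher and 4 lower.

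Genes of the cilium, the axon and the synapse were for the most part on the OSN side with gg8+OMP, and many had a positive driver difference. Of 25 genes of intraflagellar transport, the BBSome and related cilium proteins, 14 were called higher with gg8+OMP and none lower. These counts stand beside 10.9% and 6.08% of all genes, and the median driver difference was 1.32. In the gg8+OMP mice 23 of the 25 were called higher in OSN, beside 33.7% of all genes. In the gg8 mice 1 was called higher (Ift27) and 1 lower (Ift80), smaller shares than the 17.9% and 19.5% of all genes. Ift122, which carries cargo back from the ciliary tip, had 121 and 44.2 TPM in gg8 OSN and 162, 159, 150.3, 163 and 89.0 in gg8+OMP OSN (driver difference 1.81 ± 0.40, adjusted p = 0.0206), and Kif17, a ciliary motor, had 27.4 and 2.83 with gg8 and 36.0, 30.6, 34.1, 28.6 and 15.1 with gg8+OMP (driver difference 2.53 ± 0.72, adjusted p = 0.0431). In negative cells Ift122 stood at 93.8 and 107 TPM with gg8 and 63.1, 81.9, 45.9, 54.1 and 35.6 with gg8+OMP, and Kif17 at 18.6 and 21.1 with gg8 and 11, 18.2, 7.03, 9.70 and 3.87 with gg8+OMP. In OSN, for both genes, gg8 mouse 1 lay within the range of the gg8+OMP OSN and gg8 mouse 2 below it. The median without gg8 mouse 2 was 0.78, and the 14 calls fell to 8, 6 and 6 without gg8+OMP mouse 1, 3 and 4 and to 8 with no replicate block.

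Of 21 genes of axon growth and guidance, 14 were called higher with gg8+OMP and none lower, beside 10.9% and 6.08% of all genes. The median driver difference was 1.88. Kirrel3 and Kirrel2, adhesion molecules by which axons sort into glomeruli, had driver differences of 5.22 ± 0.72 (adjusted p = 0.0103) and 5.19 ± 0.61 (adjusted p = 0.00991). Kirrel2, also counted in the mature OSN list, had 27.5 and 7.88 TPM in gg8 OSN and 414, 359, 470.3, 299 and 115 in gg8+OMP OSN. Kirrel2 in negative cells had 264 and 315 TPM with gg8 and 230.2, 329, 116, 228 and 36.2 with gg8+OMP. Plxna4, a semaphorin receptor (driver difference 4.20 ± 0.56, adjusted p = 0.0103), and Nrp1, the co-receptor of Sema3a (driver difference 1.49 ± 0.33, adjusted p = 0.0211), were also higher. Sema3a itself had 66.0 and 115 TPM in gg8 OSN and 41.1, 42.6, 42.8, 42.3 and 48.9 in gg8+OMP OSN, and a driver difference of -1.02 ± 0.39 (adjusted p = 0.104). The netrin receptor Dcc had 13.7 and 7.35 with gg8 and 2.17, 1.69, 1.89, 4.19 and 4.81 with gg8+OMP TPM in OSN, and a driver difference of -1.02 ± 0.41 (adjusted p = 0.114). Sema3a and Dcc were each called higher in OSN in both kinds of mice.

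Of 17 genes of synaptic vesicle release, 12 were called higher with gg8+OMP and none lower, beside 10.9% and 6.08% of all genes. The median driver difference was 1.79 (0.97 without gg8 mouse 2). The 12 calls fell to 4, 4, 6 and 7 without gg8+OMP mouse 1, 3, 4 and 5, to 7 with no replicate block and to 8 with no mean trend. The SNARE gene Snap25 had 182 and 37.6 TPM in gg8 OSN and 308, 302, 298, 235 and 105 in gg8+OMP OSN (driver difference 2.75 ± 0.66, adjusted p = 0.0269). Its negative-cell levels were 192 and 271 TPM with gg8 and 132, 212, 67.1, 114 and 33.7 with gg8+OMP. Cplx2, which clamps release, had 114 and 148 with gg8 and 267, 247, 261, 219 and 177 with gg8+OMP (driver difference 1.94 ± 0.28, adjusted p = 0.0103). In negative cells Cplx2 had 184 and 208 TPM with gg8 and 93.3, 149.8, 76.0, 92.0 and 61.1 with gg8+OMP. Unc13a, which primes vesicles, was called higher in OSN with either driver, with a driver difference of 0.20 ± 0.34 (adjusted p = 0.693).

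Immature OSN genes were present in the OSN of both drivers. Their summed level was 9712 and 8878 TPM in gg8 OSN, 7915 to 9025 in gg8+OMP OSN, 8033 and 6724 in gg8 negative cells, and 3324 to 5576 in gg8+OMP negative cells. The OSN sum was the higher of the pair in all 7 mice, and the median sort difference was 0.07 with gg8 and 1.15 with gg8+OMP. Of 16 genes, 5 were called higher with gg8+OMP (Stmn3, Stmn4, Crmp1, Dcx and Ebf3) and none lower, beside 10.9% and 6.08% of all genes. However, only 2 were called without any 1 of gg8+OMP mice 1 to 4, and 3 with no filter, no mean trend or a pseudocount of 0.1. Gap43, a growth cone protein, stood at 672 and 93.8 TPM in the gg8 OSN against 614 and 498 in their mCherry-negative cells, and 601, 632, 758, 757 and 515 TPM in the gg8+OMP OSN against 164, 274, 496, 236 and 488 in theirs. It was 93.8 TPM in the OSN of gg8 mouse 2 and 515 TPM or more in the other 6 OSN libraries, and its driver difference was 2.22 ± 0.67 (adjusted p = 0.0516). Dcx, a microtubule protein of migrating and young neurons, was also lowest in the OSN of gg8 mouse 2, with 133 and 16.8 TPM in gg8 OSN and 200.3, 188, 188, 183 and 60.4 in gg8+OMP OSN (driver difference 2.74 ± 0.71, adjusted p = 0.0331). Dcx in negative cells had 214 and 172 TPM with gg8 and 68.3, 116, 104, 73.5 and 90.2 with gg8+OMP. Crmp1, which relays semaphorin signals, was called higher in OSN with either driver (driver difference 1.14 ± 0.32, adjusted p = 0.0427), and Tubb3, the neuronal tubulin, had 934 and 1833 with gg8 and 784, 673, 615, 719 and 1274 with gg8+OMP TPM in OSN with a driver difference of 0.26 ± 0.47 (adjusted p = 0.709).

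Of 18 genes with a part in receptor choice 10 had no called driver difference. Lhx2, Ldb1, Emx2 and the demethylase Kdm1a had driver differences between -0.22 and 0.45, with adjusted p of 0.283 or more. Those called higher with gg8+OMP were 6, namely Ebf2, Ebf3, Ebf4, Dnmt3a, Atf5 and Adcy3, beside 10.9% of all genes. Of these Ebf3, Atf5 and Adcy3 were also counted in lists above. Another 2 were called lower, beside 6.08% of all genes. They were Cbx5, which encodes the heterochromatin protein HP1 alpha (driver difference -1.11 ± 0.29, adjusted p = 0.0358), and the lamin B receptor Lbr (driver difference -1.41 ± 0.38, adjusted p = 0.0381). Ebf4 had 225 and 15.7 TPM in gg8 OSN and 300.4, 284, 263, 204 and 224 in gg8+OMP OSN (driver difference 3.58 ± 0.81, adjusted p = 0.0224), with the OSN of gg8 mouse 2 the lowest library. Its negative-cell levels were 308 and 312 TPM with gg8 and ran from 63.6 to 196 with gg8+OMP. Lbr had 47.8 and 78.5 TPM in the gg8 OSN against 90.4 and 66.9 in their mCherry-negative cells, and 36.0, 39.1, 40.3, 38.8 and 61.0 TPM in the gg8+OMP OSN against 79.8, 127, 172, 198 and 183 in theirs. The 6 higher calls fell to 3, 2 and 3 without gg8+OMP mouse 1, 3 and 4 and to 3 with no mean trend, and the 2 lower calls to 0 without any 1 of gg8+OMP mice 2 to 5, with no replicate block and with no mean trend. For Lbr the 4 highest libraries were the negative cells of gg8+OMP mice 2 to 5.

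Progenitor genes gave no called driver difference, and the gg8 mice lay on opposite sides of 0. None of 13 genes was called by limma in either direction (0 higher and 1 lower at an unadjusted p under 0.05, and none called by voom). The list median of the sort difference was -1.53 in gg8 mouse 1 and 1.00 in gg8 mouse 2, and -1.98 to -0.20 in the gg8+OMP mice. Without gg8 mouse 2 the median driver difference was 0.49 in place of -0.79, and without gg8 mouse 1 it was -1.90 with 6 genes called lower. Neurod1, a transcription factor of the last progenitor divisions, stood at 79.9 and 652 TPM in the gg8 OSN against 232 and 88.9 in their mCherry-negative cells, and 71.3, 74.3, 53.6, 36.3 and 341 TPM in the gg8+OMP OSN against 43.4, 119, 146, 87.7 and 175 in theirs. Sox2, kept by basal stem cells and sustentacular cells, had 4.71 and 48.2 TPM in gg8 OSN and 3.32, 2.46, 3.53, 5.21 and 37.2 in gg8+OMP OSN. For both genes the highest OSN value of a driver belonged to gg8 mouse 2 and to gg8+OMP mouse 5.

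Those same libraries, gg8 mouse 2 and gg8+OMP mouse 5, held the most Mex3a, Atf4, Ddit3 and Trib3 and the least Omp, Gap43, Dcx and odorant receptor RNA of the OSN libraries of their driver. AW551984 had 301 and 4.87 TPM in gg8 OSN and 85.9, 98.6, 157, 303 and 8.34 in gg8+OMP OSN, again lowest in these libraries. The part of this in the driver differences was not tested beyond the fits without each mouse.

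Cell cycle genes were on the negative side with either driver. All 18 cell cycle genes were called lower in gg8+OMP OSN and 13 in gg8 OSN, beside 26% and 19.5% of all genes. None had a called driver difference by limma (0 higher and 4 lower at an unadjusted p under 0.05), and voom called none. Mki67, a protein of cycling nuclei, stood at 13.4 and 48.4 TPM in the gg8 OSN against 397 and 159 in their mCherry-negative cells, and 20.6, 40.3, 50.7, 50.2 and 155 TPM in the gg8+OMP OSN against 148, 360.1, 649, 785 and 631 in theirs. Its OSN level was highest in gg8+OMP mouse 5. In the fit without gg8 mouse 1, 3 genes of the list were called lower with gg8+OMP, and the list median was -1.67, against 0.69 without gg8 mouse 2.

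**Figure D4:**
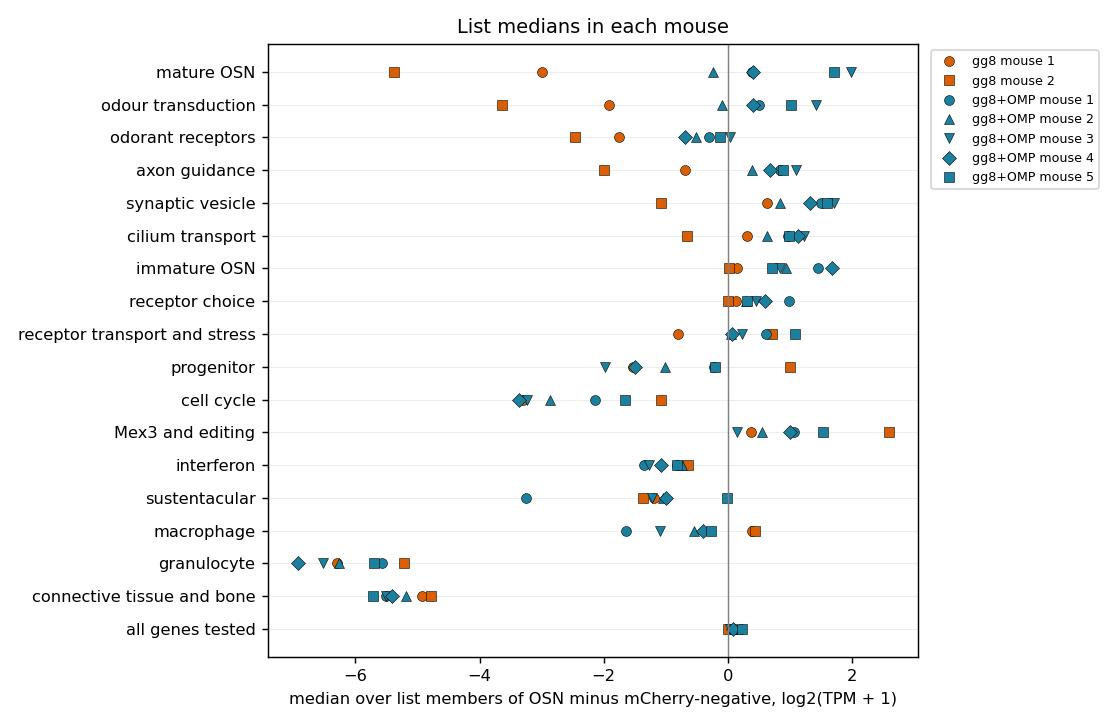
Median over the members of each gene list of the OSN minus mCherry-negative difference, log2(TPM + 1), with 1 point per mouse (orange for gg8, blue for gg8+OMP). The orange points of the mature OSN list lie at -3.00 and -5.38 and its blue points at -0.24 to 1.99, while the progenitor list has an orange point at -1.53, among the blue ones, and another at 1.00, above them.

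Granulocyte genes were lower in OSN than in negative cells with either driver. The summed level of 15 granulocyte genes was 3046 to 3970 TPM in the gg8 negative cells and 13199 to 18261 in the gg8+OMP negative cells, and it was 75.3 to 81.4 and 168 to 399 TPM in the OSN. No gene of the list was at 0 in a negative library. All 15 were called lower in OSN with either driver, beside 19.5% of all genes with gg8 and 26% with gg8+OMP. Of these, 6 had a called negative driver difference (Prtn3, Ctsg, Ltf, Mmp8, Cebpe and Fcnb) and none a positive one. Over all genes these shares were 6.08% and 10.9%. Ctsg, the neutrophil protease cathepsin G, stood at 27.3 and 25.5 TPM in gg8 negative cells and 155, 234, 223, 216 and 254 in gg8+OMP negative cells, and at or under 1.60 TPM in all OSN (driver difference -2.59 ± 0.40, adjusted p = 0.0105). In OSN these levels are near the pseudocount of 1 TPM, and in the OSN of gg8 mouse 2 and of gg8+OMP mouse 4, 2 of the 15 genes were at 0. With a pseudocount of 0.1 and with voom 2 of the 15 genes were called, and the list median was -0.18 in place of -1.20. With a pseudocount of 5, 11 were called.

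Macrophage genes had 7 called negative driver differences of 15 and no positive one, beside 6.08% and 10.9% of all genes. Their summed level was 465 to 730 TPM in gg8 negative cells and 1458 to 1928 in gg8+OMP negative cells, against 405 to 685 and 387 to 747 in OSN. The complement genes C1qa, C1qb and C1qc had mean sort differences of 1.62 to 1.86 with gg8 and 0.85 to 1.16 with gg8+OMP and no called driver difference, while Tyrobp (driver difference -1.63 ± 0.20, adjusted p = 0.00991), Fcer1g (driver difference -1.94 ± 0.31, adjusted p = 0.011) and Cd14 (driver difference -2.01 ± 0.25, adjusted p = 0.00991), which granulocytes also express, were among the 7. C1qb had 47.8 and 70.1 TPM in gg8 OSN and 39.0, 49.7, 52.4, 59.2 and 90.6 in gg8+OMP OSN, above the level in the negative cells in every mouse but gg8+OMP mouse 1. Of 11 lymphocyte genes tested 4 had a called positive driver difference, among them Cd79a, Cd79b and Igll1 of the B lineage. Cd3d and Nkg7 of T and NK cells had a negative one. These counts stand beside 10.9% and 6.08% of all genes. The 4 calls fell to 2 without gg8+OMP mouse 2, 3 or 4 and with a pseudocount of 5, and the 2 negative calls to 0 with voom or a pseudocount of 0.1 and to 1 without gg8 mouse 1 or gg8+OMP mouse 3, 4 or 5. Of 5 red cell genes measured, 3 were called positive, among them Alas2 and Slc4a1, beside 10.9% of all genes. The 3 calls fell to 0 with no replicate block, to 1 with voom, and to 1 without gg8 mouse 1, gg8+OMP mouse 1 or gg8+OMP mouse 3. Slc4a1, the band 3 anion exchanger, had 4.59 and 8.43 TPM in gg8 OSN and 16.3, 53.9, 88, 90.8 and 54.4 in gg8+OMP OSN (driver difference 2.40 ± 0.41, adjusted p = 0.0122). In negative cells Slc4a1 had 164 and 162 TPM with gg8 and 52.9, 139, 409, 599.7 and 341 with gg8+OMP.

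Connective tissue and bone genes were far lower in OSN with either driver. All 15 of them were called, beside 19.5% of all genes with gg8 and 26% with gg8+OMP. A called negative driver difference was found for 4 (Dcn, Pdgfra, Bglap and Spp1), beside 6.08% of all genes. The 4 calls fell to 1 without gg8+OMP mouse 3 or 4 and to 2 with no replicate block, a pseudocount of 0.1 or voom, and rose to 9 with a pseudocount of 5. Their summed level in negative cells was 7072 to 7326 TPM with gg8 and 15861 to 30650 with gg8+OMP, and 72 to 91.1 and 185 to 315 TPM in OSN. Markers of sustentacular cells (16 genes), basal cells (8), vessels (10) and ensheathing glia (10) gave no called driver difference by limma. At an unadjusted p under 0.05, 0, 0, 0 and 2 of them were higher and 2, 1, 2 and 1 lower, and voom called 1 sustentacular gene lower and none of the others. The share of these cell types in the driver differences was not tested. Among respiratory and gland genes Foxj1, a factor of motile cilia that OSN also express, was called higher with gg8+OMP (driver difference 3.80 ± 0.72, adjusted p = 0.0151), and Scgb1c1 (driver difference -1.51 ± 0.42, adjusted p = 0.0414) and Lyz2 (driver difference -1.38 ± 0.26, adjusted p = 0.0146) lower, and without gg8+OMP mouse 1, 3, 4 or 5 only 1 of these 2 was called lower. Among 9 microvillous cell genes 1 was called higher (Pou2f3), a share close to the 10.9% over all genes.

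**Figure D5:**
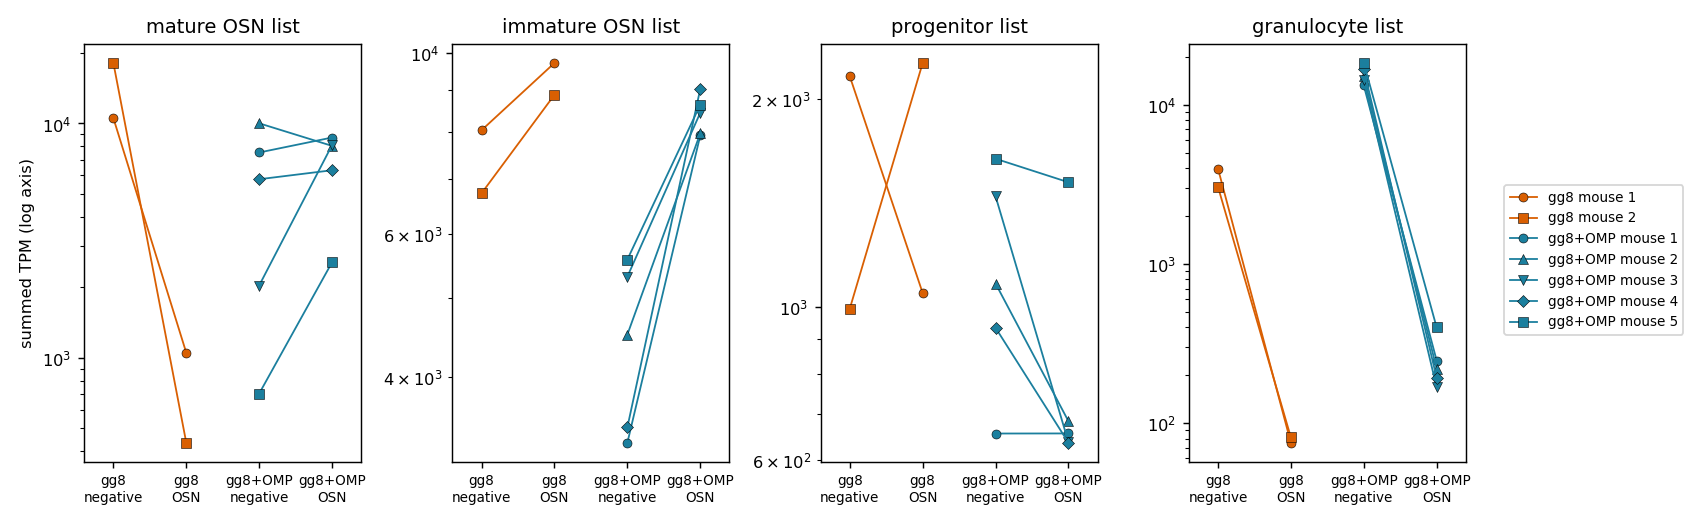
Summed TPM of 4 marker lists in the mCherry-negative cells and OSN of each mouse, on log axes that differ between panels, with a line per mouse. Mature OSN transcripts fall from negative cells to OSN in both gg8 mice (to 1051 and 435 TPM), granulocyte transcripts fall in all 7 mice, and progenitor transcripts fall in gg8 mouse 1 but climb in gg8 mouse 2.

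The 10 genes with the largest negative driver difference were AF357359, at -4.57, and then Adam8, Fkbp11, Ear2, Fpr1, Plod2, Epx, Anxa3, Sepn1 and Asprv1, from -3.06 to -2.82. Adam8, a metalloprotease of granulocytes, had 22.5 and 22.1 TPM in gg8 negative cells, 70.2, 128, 107, 152 and 184 in gg8+OMP negative cells, and 2.20 to 7.24 in OSN (driver difference -3.06 ± 0.38, adjusted p = 0.00991). Fpr1, the formyl peptide receptor of neutrophils, and Epx, the eosinophil peroxidase, had driver differences of -2.94 ± 0.40 (adjusted p = 0.0103) and -2.85 ± 0.62 (adjusted p = 0.0202), and the Epx sort difference of gg8+OMP mouse 1 stood apart from those of the other 4. In OSN Fpr1 stood at 0 to 1.07 TPM and Epx at 0 to 1.80, near the pseudocount of 1 TPM. Ear2 had at most 1 count in any OSN library and 1 count in each gg8 negative library. The driver differences of these 3 genes thus depend on the pseudocount. Plod2, which hydroxylates collagen lysines, had 25.6 and 46.9 TPM in gg8 OSN and 10.3, 11.3, 6.42, 7.44 and 26.4 in gg8+OMP OSN, ranges that overlap. Plod2 in negative cells had 15.4 and 11.7 TPM with gg8 and 27.7, 27.3, 31.4, 54.3 and 40.1 with gg8+OMP. The selenoprotein gene Sepn1 had 24.8 and 25.3 TPM in gg8 OSN and 9.83, 11.5, 6.40, 10.2 and 13.4 in gg8+OMP OSN. Its negative-cell levels were 20.5 and 15.7 TPM with gg8 and 44.1, 53.0, 46.3, 59.8 and 81.5 with gg8+OMP. OSN levels were not tested between the tables. AF357359 had the largest fitted value (driver difference -4.57 ± 1.26, adjusted p = 0.04), with 339 and 68.3 TPM in gg8 OSN and 0 counts in all gg8+OMP OSN, from at most 36 counts in any library. That value depends on the pseudocount and is no bound. The call was lost with a pseudocount of 0.1 (adjusted p = 0.114), with no replicate block (0.0649), and without gg8 mouse 1 (0.0953), gg8+OMP mouse 1 (0.0525) or gg8+OMP mouse 2 (0.0672). All 10 lost the call without gg8 mouse 2, at adjusted p of 0.06 to 0.198.

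What both drivers shared was largest for 5 genes higher in OSN (AW551984, Adar, Gpr85, Cntn2 and Ddx25) and 5 lower (Ibsp, Col1a2, Mpo, Col1a1 and Ngp). Gpr85, an orphan receptor of neurons, stood at 61.4 and 25.4 TPM in the gg8 OSN against 5.16 and 3.10 in their mCherry-negative cells, and 41.2, 41.9, 31.0, 39.6 and 18.7 TPM in the gg8+OMP OSN against 3.79, 3.51, 4.34, 4.16 and 3.76 in theirs. Cntn2, an axonal adhesion molecule, had sort differences of 3.11 and 2.09 in the gg8 mice and 1.86 to 3.36 in the gg8+OMP mice, and the RNA helicase Ddx25 had 3.40 and 1.92 with gg8 and 1.94 to 2.96 with gg8+OMP. The driver differences of these 3 genes were within 0.21 of 0, with adjusted p of 0.724 or more and standard errors of 0.40 to 0.46. AW551984 varied most. Its gg8 sort difference of 3.15 (adjusted p = 0.0357) was 0.48 without gg8 mouse 1 (adjusted p = 0.593), and its adjusted p was 0.0505 to 0.0558 without any 1 of gg8+OMP mice 1 to 4. On the other side Col1a1, the main bone and skin collagen, stood at 22.4 and 35.2 TPM in gg8 OSN against 3158 and 3467 in their negative cells, and at 132, 133, 74.2, 120.1 and 152 against 6271, 9684, 8166, 11807 and 14353 with gg8+OMP. The Mpo sort difference was -5.58 in gg8+OMP mouse 1, apart from those of the other 4.

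Genes called in opposite directions fell into unequal groups. In all 329 (1.96%) were called lower in OSN with gg8 and higher with gg8+OMP, and 37 (0.22%) the other way. Each had a called driver difference, which comes from the same fit and adds no separate support. Without gg8 mouse 2 the numbers were 47 and 5, and without gg8 mouse 1 they were 863 and 160. Ranked by the smaller of a gene's sort differences under the drivers, a ranking chosen after the values were seen, Gabbr2, Tekt4 and Drc7 came first among the 329. The 329 included 3 of the mature OSN list, 5 of the guidance list and 2 of the receptor transport list, and these lists share genes. Gabbr2, a subunit of the GABA-B receptor, stood at 93.5 and 3.64 TPM in the gg8 OSN against 149.5 and 196 in their mCherry-negative cells, and 334, 294, 311, 259.8 and 202 TPM in the gg8+OMP OSN against 79.5, 126, 45.4, 68.7 and 26.9 in theirs. Its OSN level in gg8 mouse 1 was 93.5 TPM and in gg8 mouse 2 3.64 (driver difference 5.20 ± 1.02, adjusted p = 0.0161). Tekt4, a tektin, had 2.03 and 0.402 TPM in gg8 OSN and 35.1, 26.3, 25.0, 22.5 and 7.28 in gg8+OMP OSN (driver difference 4.46 ± 0.53, adjusted p = 0.00991). In negative cells Tekt4 had 8.08 and 11 TPM with gg8 and 9.18, 9.78, 2.51, 3.54 and 0.879 with gg8+OMP. Drc7 had a driver difference of 5.03 ± 0.86 (adjusted p = 0.0122).

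Among the 37, the glycosyltransferase gene B4galt6, second in the same ranking, had 18.5 and 18.4 TPM in gg8 OSN against 7.51 and 5.97 in negative cells, and 7.34, 6.43, 6.47, 7.65 and 9.14 against 13.8, 18.3, 23.0, 18.9 and 20.6 with gg8+OMP (driver difference -2.57 ± 0.33, adjusted p = 0.0102). Among 15 interferon-related genes 2 were called lower and 1 higher, beside 6.08% and 10.9% of all genes. The higher call was lost with median-of-ratios scaling, a pseudocount of 0.1, no filter or no replicate block. It was also lost without gg8+OMP mouse 1, 2, 3 or 5. The 2 lower calls fell to 1 with a filter at 5 TPM, a pseudocount of 0.1, no filter or no replicate block. They also fell to 1 without gg8+OMP mouse 1, 2 or 3, and rose to 3 with median-of-ratios scaling, no mean trend or no short transcripts. Oasl2 was called lower (driver difference -2.08 ± 0.61, adjusted p = 0.0478) and the RNA sensor Ddx58 higher (driver difference 0.97 ± 0.28, adjusted p = 0.0483), and the list median was -0.53. The other Mex3 genes, Mex3b, Mex3c and Mex3d, had driver differences of -0.76, -0.20 and -0.58, with adjusted p of 0.431 to 0.675. Mex3b had 112 and 389 TPM in gg8 OSN and 48.6, 49.9, 43.1, 57.3 and 188 in gg8+OMP OSN, in each driver highest in the library highest in Mex3a. None of 80 ribosomal protein genes had a called driver difference by limma (0 higher and 18 lower at an unadjusted p under 0.05), and voom called 1 lower. In OSN 67 were called lower with gg8+OMP, beside 26% of all genes. With gg8 14 were, a share close to the 19.5% of all genes.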

How the data were processed

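RNA of sorted mCherry-positive and mCherry-negative cells of the main olfactory epithelium was sequenced after library preparation with a stranded SMARTer total RNA kit for low input (Pico v2), per the labels' protocols. The authors deposited TPM values per gene, in 1 table for the gg8 mice and 1 for the gg8+OMP mice. The submitters' processing notes name FastQC, cutadapt, STAR, bedtools and mm10, and the counting program, annotation and use of strand are not given in the sources used here. Without that, overlapping and antisense genes cannot be told apart. Names that a spreadsheet had turned into dates (27 in each table) were left out, and 22786 genes were in both tables.

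Samples were grouped by genotype and sort from the labels, and fractions were paired because the labels state that both came from the same mouse. Differences of log2(TPM + 1) within each mouse were fitted with limma 3.58.1 in R 4.3.3, with an intensity trend and Benjamini-Hochberg adjustment over the 16792 genes whose mean TPM, averaged over the tables, was at least 1. Fold changes on this scale understate the change of low genes. Whole counts recovered from the TPM (100% of genes within 0.02 counts in the gg8+OMP table, 99.86% within 0.05 in the gg8 table) were used for depth and for an alternative fit with limma's voom, which called 1533 genes higher and 1101 lower. The fit was also run on simulated data in which all mice varied alike, so that run does not cover the difference between the gg8 mice. Named genes were Mex3a, Adar, Gng8 and Omp, the 10 largest called driver differences in each direction without overlap between drivers and with 5 TPM or more on average in a group, and the 5 largest differences in each direction shared by both drivers. Symbols of predicted genes, pseudogenes and receptors and those starting with Mir, Snor or Scarna were passed over, which leaves AF357359, a short transcript, in. The members and lists were chosen with earlier results of these data known. P-values measure the spread between these pairs of libraries. The labels assign each pair to 1 mouse, although 12 of the 14 libraries held RNA of both sexes. Other pseudocounts, filters, scalings, the fit without pairing and fits without each mouse were tried. Promoter windows came from RefSeq (GRCm38.p6). Values of some list members are not reported here.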

Additional observations from a re-analysis of the deposited data

Results flagged for a closer look

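In 3 of the 57 groups of 5 gg8+OMP mice examined, 1 mouse stood apart from the other 4 on the OSN minus negative difference (log2(TPM + 1)), where chance alone sets apart about 1 in 20. Epx was at -4.48 in gg8+OMP mouse 1, against -6.55 to -6.00 in the others. Mpo was at -5.58 in the same mouse, against -7.47 to -6.95. AW551984 was at 1.65 in gg8+OMP mouse 5, against 3.28 to 3.87.

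The drivers gave opposite called directions for 329 genes that were lower in OSN with gg8 and higher with gg8+OMP, and for 37 genes the other way. The driver difference was called for each of them, but it comes from the same fit as these calls and adds no separate support.

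Mex3a stood at 678.8 TPM in the sixth gg8+OMP OSN library, which has no mCherry-negative partner and enters no comparison.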

How the results depend on the processing

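With 2 gg8 mice, counts of called genes rest on each of them, and with 1 left it was assumed to vary like the gg8+OMP mice. No setting separates driver from date. Leaving out each mouse in turn gave 1 to 2762 genes with a higher and 1 to 2234 with a lower driver difference, and 719 to 3164 higher and 1458 to 3492 lower with gg8. The median driver difference then ranged from 3.29 to 6.17 for mature OSN genes, -1.23 to 0.38 for receptor transport and stress, 0.78 to 1.52 for cilia, 1.16 to 2.68 for guidance, 0.97 to 2.14 for synaptic genes, -1.90 to 0.49 for progenitor genes, -1.67 to 0.69 for the cell cycle, -1.15 to -0.82 for connective tissue, -1.77 to 0.28 for Mex3 and editing genes and 1.39 to 2.19 for odorant receptors. With a pseudocount of 0.1, 676 genes were called lower, and the medians were -0.18 for granulocyte genes and 3.26 for receptors. With voom on recovered counts those medians were -0.18 and 3.42, and 4108 genes were called higher and 4826 lower with gg8+OMP. The Mex3a driver difference ranged from -2.02 without gg8 mouse 1 to 0.86, a reversed sign, without gg8 mouse 2. For these shifts the cause was not tested. With no replicate block, that is without the pairing by mouse, 1473 genes were called higher and 973 lower. Without short transcripts, a setting chosen after seeing the data, 2009 and 1156 were called. Of 539 values of named genes under alternatives, 492 kept direction and side of the threshold, 44 lost the call, 2 gained it and 1 reversed. Most receptors are low, and their levels in the gg8+OMP libraries limit what can be seen of single receptors.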
